A study of Homo sapiens with 18 samples.

Results

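The genes described here encode the enzymes that write, erase and read histone and DNA marks and the motors that move nucleosomes. They were chosen by symbol: the KMT2 and KMT5, SETD, EHMT, NSD, EZH, SUZ12 and EED genes, the KDM1 to KDM8 demethylases, the KAT2 to KAT8, EP300, CREBBP and EP400 genes, the histone deacetylases (HDACs) and sirtuins, the SMARC, CHD, ARID and BRD genes, and the DNMT and TET genes. The rule found 119 genes of 13661 in the table, and 117 of them were among the 12720 genes with enough reads to test. The cells were HEK293, an established human embryonic kidney line, which had received DMSO vehicle for 12 h. Polysome profiling separates the mRNAs of a lysate by centrifugation through sucrose, in which those carrying more ribosomes travel further. From each of 3 replicate gradients came a library of the monosomes, one of the light polysomes and one of the heavy polysomes, 9 in all. The labels also describe 9 libraries of cells given 100 µM minocycline for 12 h; they are not analysed here, so nothing below bears on that drug. The labels call the replicates biological but do not say whether they were grown as separate cultures, so p-values measure the spread between these 3 gradients.

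Chromatin is regulated by enzymes that add a mark (writers), enzymes that remove it (erasers), proteins that bind it (readers) and ATP-driven remodellers that slide or evict nucleosomes. Most of them work inside large complexes whose subunits are made from separate mRNAs, and several of the catalytic subunits are among the longest proteins of the nucleus. Where an mRNA sits in a gradient reflects how often ribosomes start on it, how fast they move and how long its coding sequence is, since a longer coding sequence has room for more ribosomes.

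The libraries held between 13447139 and 24441159 reads on the genes of the table. Light polysome replicate 2 stood apart: on log2 values its mean correlation across genes was 0.894 with the other light libraries and 0.940 with the heavy ones, while light replicates 1 and 3 correlated at 0.985. Many values are therefore given by gradient, and the main counts also with each gradient left out. All 8 marker genes of HEK293 looked up (NEFM, NEFL, INA, VIM, PAX2, LHX1, KRT8 and KRT18) were detected, with mean reads per library from 90.6 for KRT8 to 6961 for VIM. Each library had been scaled to the same typical gene, so a percentage says where a gene lies relative to other genes, not how much RNA a fraction held. The libraries are bulk lysates, in which fewer cells with an mRNA and less of it per cell cannot be told apart.

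The median chromatin mRNA had a higher ribosome load than the median gene in each of the 3 gradients. Monosomes were the leading fraction of 19.7%, 15.4% and 27.4% of the members in gradients 1, 2 and 3. For all genes tested these shares were 30.3%, 38.7% and 33.2%. The measure used is the mean ribosome load, the deposited percentages of a gene in the 3 fractions weighted by 1 for monosomes, 2.5 for light and 6 for heavy polysomes, which is a relative score and not a count of ribosomes. The median load of the 117 members was 3.37, 3.64 and 3.34 in gradients 1, 2 and 3, which is 3.45 ± 0.17 (SD, n = 3), against 3.17, 3.17 and 3.16, or 3.17 ± 0.0091, for all genes tested. The median member had 24.8 ± 3.9% of its signal in monosomes, 33.2 ± 0.58% in light and 38.04 ± 4.6% in heavy polysomes (SD, n = 3). All genes tested had medians of 30.98 ± 0.29%, 30.5 ± 0.38% and 32.5 ± 0.27%. The median coding length was 3192 nt for the members and 1404 nt for all genes, and loads at similar lengths are given below.

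The test between fractions was limma's on log2(normalized count + 1), with Benjamini-Hochberg adjustment over the 12720 genes and a threshold of 0.05. Between heavy polysomes and monosomes, 46 of 117 members (39.3%) were higher in heavy polysomes, against 24.7% of all genes tested. Only 10 members (8.55%) were lower in heavy polysomes, against 24.4% of all genes. Between light polysomes and monosomes, 27 members (23.1%) were higher in light polysomes, against 8.47% of all genes, and 5 (4.27%) were lower, against 10.2%. Between heavy and light polysomes the members showed no excess of high calls: 14 (12.0%) were higher in heavy polysomes, against 14.7% of all genes, and 7 (5.98%) were lower, against 17.5%. The load of 32 members (27.4%) was called above that of the median gene, against 22% of all genes. The load of 5 (4.27%) was called below it, against 24.7%. On load, the gap to all genes was wider among the low calls than among the high ones. As a description without a test, the heavy and monosome libraries did not overlap in 60 members that were higher in heavy polysomes (51.3%), against 31.4% of all genes, and the light and monosome libraries did not overlap in 39 that were higher in light polysomes (33.3%), against 17.6%.

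**Figure D1:**
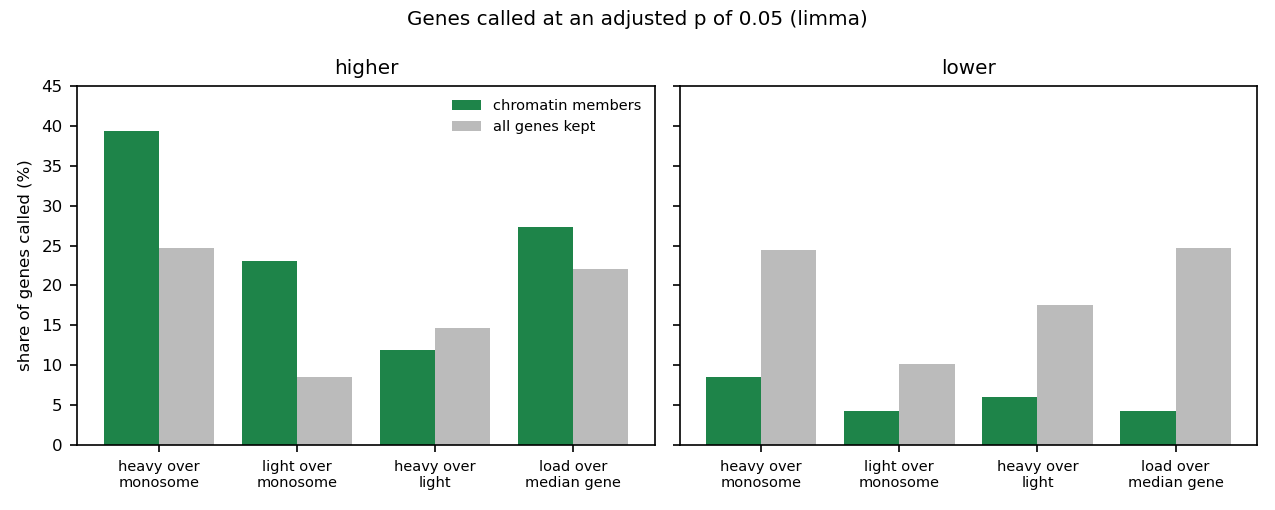
Bars give the percentage of genes called at an adjusted p under 0.05 by limma, higher in the left panel and lower in the right panel, for the chromatin members (green) and all genes tested (grey). The green bar is above the grey one for heavy and light polysomes over monosomes among the higher calls (39.3% against 24.7% and 23.1% against 8.47%), and below it in all 4 comparisons among the lower calls.

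With only 3 gradients many of these calls depended on 1 of them. When each gradient was left out in turn, 21 to 49 members were higher and 4 to 18 lower in heavy polysomes than in monosomes. The light against monosome comparison gave 8 to 33 higher and 2 to 16 lower, the heavy against light comparison 0 to 35 higher and 0 to 26 lower, and the load 8 to 34 higher and 4 to 11 lower. The smallest high counts came without gradient 1 and the largest without gradient 2; heavy against light polysomes gave 0 higher without gradient 1 and also without gradient 3. The calls between heavy polysomes and monosomes that held with any 1 gradient left out were those of 19 of 56 members, among them HDAC2, SMARCE1, SMARCB1, SMARCA4, SMARCAL1, SETD1B, KAT5, KAT6A, KAT6B, CREBBP, KDM5A, CHD3, CHD4, CHD7 and ARID4B, all higher in heavy polysomes, and SETD9, EZH1 and BRD3OS, all lower. Between light polysomes and monosomes 6 of 32 calls held in this way, with KMT2A, KMT2C, CHD9 and SETD1B higher in light polysomes and SETD9 and KAT2A lower. Of the 37 calls on load, 12 held: HDAC2, SMARCE1, SMARCB1, SMARCD1, SMARCA4, SMARCAL1, KDM1A and KAT5 above the median gene, and SETD9, BRD3OS, EZH1 and KAT2A below it. None of the 21 calls between heavy and light polysomes held. How often the calls of all genes held in this way was not counted, so these counts do not set the members apart. Every other call of a member given below was lost without at least 1 gradient. When all polysomal signal was summed instead of weighted, 12 of the 37 calls on load were lost: those of SIRT1, SIRT6, EED, KAT5, KAT7, KAT8, KDM1A, KDM4A, HDAC1, SMARCA5, ARID3A and BRD9.

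Some members share sequence or exons with other genes, and how reads shared between genes were counted is not given in the sources used here. In GENCODE 29, exons of another gene cover 55.8% of those of HDAC10 (MAPK12), 46.9% of CHD4 (AC006064.6), 42.3% of BRD7 (ADCY7), 40.2% of KDM4A (AL451062.3), 38.6% of KAT5 (RNASEH2C) and 21.4% of SETD6 (CNOT1). The other gene is on the same strand for HDAC10, CHD4 and KDM4A and on the opposite strand for BRD7, KAT5 and SETD6. Smaller overlaps on the same strand include 19.8% of SMARCE1 (AC073508.2), 17.9% of KMT2A (AP001267.5) and 14.5% of ARID4B (RBM34). Exons on the opposite strand cover 18.6% of BRD3 (BRD3OS) and 17.7% of SMARCB1 (DERL3). By name SMARCE1 has 7 pseudogenes in that annotation and BRD7 has 5. The values of these genes are uncertain to that extent.

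**Figure D2:**
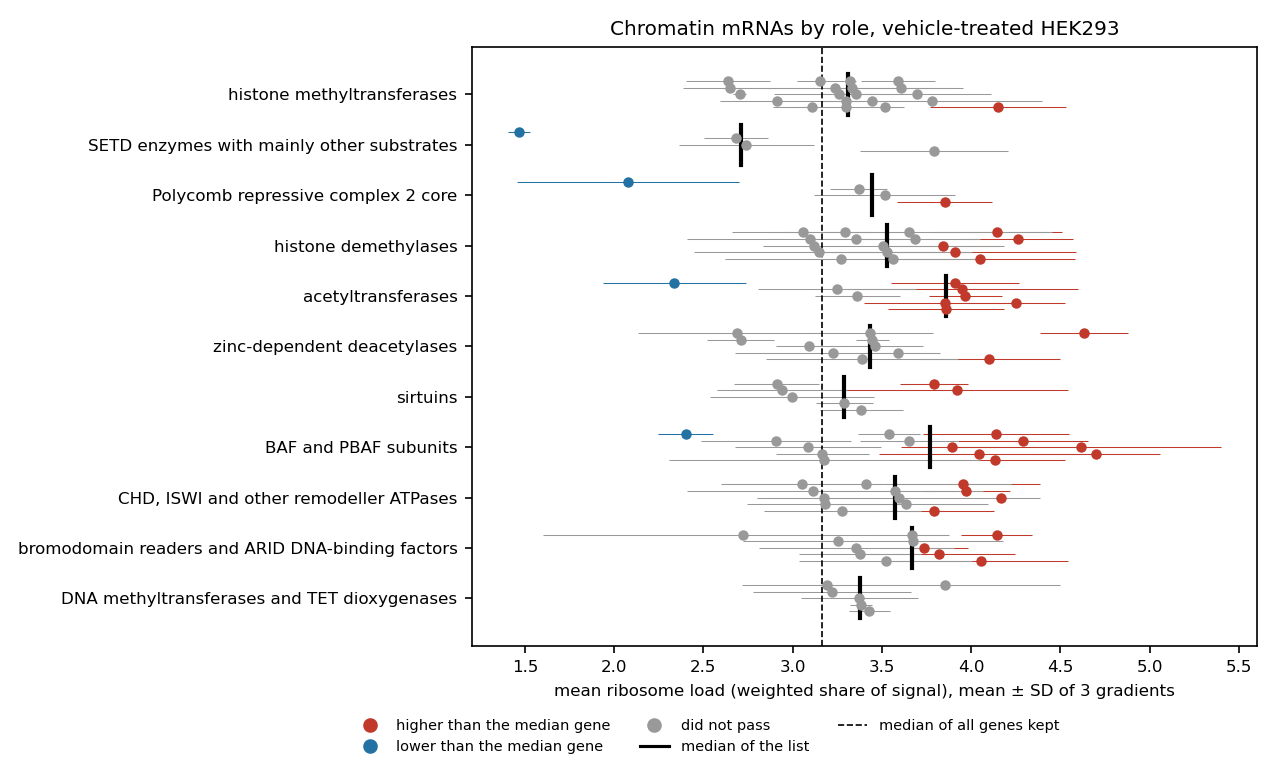
Each point is 1 chromatin mRNA, placed by its mean ribosome load over 3 gradients (horizontal axis, bars are SD) within its role list; colours give the limma call against the median gene, black ticks the median of each list's gene means and the dashed line the median of all genes tested (3.17). Most lists lie right of the dashed line, and SETD9 at 1.47 lies furthest left of the genes drawn; BRD3OS is in no role list and is not drawn.

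Histone methyltransferases place methyl groups on histone lysines. Of the 20 tested, 7 were higher and 3 lower in heavy polysomes than in monosomes (1 to 8 and 0 to 4 with a gradient left out). The shares of all genes were 24.7% and 24.4%. In light polysomes 8 of the 20 were higher and none lower than in monosomes (3 to 10 higher and 0 to 4 lower). The shares of all genes were 8.47% and 10.2%. No test was run between such shares and the counts of this list or those below. The median load of the methyltransferases was 3.26 ± 0.066, and only SETD1B had a load that passed the test. SETD1B, a catalytic subunit of the COMPASS complexes that methylate lysine 4 of histone H3, had 7.003%, 10.6% and 11.3% of its signal in monosomes in gradients 1, 2 and 3, 32.9%, 49.2% and 35.03% in light and 60.1%, 40.2% and 53.6% in heavy polysomes. Monosomes held the least in every gradient, and its light and monosome shares did not overlap. The log2 difference between light polysomes and monosomes was 2.01 ± 0.34 (SE), adjusted p = 0.00144, and that between heavy polysomes and monosomes was 2.40 ± 0.34 (SE), adjusted p = 0.000144 (limma).

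Among the giant KMT2 enzymes, which methylate the same lysine at promoters and enhancers, KMT2A and KMT2C were held mainly in light polysomes. KMT2A, the MLL gene rearranged in leukaemia (ENSG00000118058, chr11:118436464-118526832 in GRCh38, coding length 11907 nt), had 15.7%, 13.7% and 9.50% of its signal in monosomes, 61.6%, 57.4% and 69.3% in the light fraction and 22.8%, 28.9% and 21.2% in the heavy fraction. Light polysomes led in all 3 gradients and their share overlapped neither of the other fractions. Its log2 difference between light polysomes and monosomes was 2.30 ± 0.32 (SE), adjusted p = 0.000474, and between heavy and light polysomes it was -1.38 ± 0.32 (SE), adjusted p = 0.00873 (limma). KMT2C, which acts at enhancers and has a coding length of 14733 nt, had light shares of 51.4%, 55.9% and 56.7%, against monosome shares of 18.8%, 11.5% and 13.8%. The light share was again the highest in each gradient, with a log2 difference over monosomes of 1.92 ± 0.30 (SE), adjusted p = 0.000989 (limma). Its heavy against light difference was -0.83 ± 0.30 (SE), adjusted p = 0.049 (limma), which with the replicate number as a block became an adjusted p of 0.0527. KMT2D, the partner of KMT2C at enhancers, was less steady, with light shares of 32.95%, 63.1% and 37.1% and heavy shares of 47.01%, 25.5% and 49.2%: light polysomes led in gradient 2 and heavy polysomes in the others. KMT2B was split more evenly, with 42.3% ± 8.3 in light and 36.2% ± 10 in heavy polysomes (SD, n = 3), and its heavy against monosome difference did not pass (log2 0.72 ± 0.33 (SE), adjusted p = 0.0859, limma).

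The other well-loaded methyltransferases were SETD2, which places trimethyl marks on lysine 36 of histone H3 behind RNA polymerase II, with a load of 3.78 ± 0.62, and KMT2D with 3.69 ± 0.42 (SD, n = 3). Neither passed the test on load, and both were higher in heavy polysomes than in monosomes (log2 1.35 and 1.40, adjusted p = 0.00881 and 0.0105 by limma). At the low end were KMT5C (2.64 ± 0.24), which adds methyl groups to lysine 20 of histone H4, SETDB2 (2.65 ± 0.26), a relative of the lysine 9 methyltransferase SETDB1, and NSD2 (2.70 ± 0.037), which dimethylates lysine 36 of histone H3. All 3 were lower in heavy polysomes than in monosomes, by log2 -0.95, -0.91 and -0.85 (adjusted p = 0.0244, 0.0324 and 0.0281, limma). NSD2 had nearly the same load in each gradient (2.69, 2.67 and 2.74). The remaining methyltransferases had mean loads between 2.91 for SETD7 and 3.61 for SETD1A.

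SETD enzymes known mainly for other substrates included the member with the lowest load. SETD9, a SET-domain protein (ENSG00000155542, chr5:56909260-56925532 in GRCh38), had 77.3%, 83.6% and 75.7% of its signal in monosomes, 18.5%, 12.2% and 19.9% in light and 4.12%, 4.29% and 4.38% in heavy polysomes. No fraction overlapped another, and the load of 1.48, 1.40 and 1.52 was the lowest of all members in gradients 1 and 2. Its log2 difference between heavy polysomes and monosomes was -4.17 ± 0.38 (SE), adjusted p = 8.93e-06, and its log2 load relative to the median gene was -1.11 ± 0.089 (SE), adjusted p = 0.000156 (limma). SETD9 averaged 196 reads per library and has a coding length of 897 nt, which is short for this group. SETD6, which methylates the NF-kappaB subunit RELA, was lower in light polysomes than in monosomes (log2 -1.34 ± 0.30 (SE), adjusted p = 0.00702, limma) and had a load of 2.68 ± 0.18. SETD3, the actin histidine methyltransferase, was higher in heavy polysomes than in monosomes (log2 1.21 ± 0.37 (SE), adjusted p = 0.0158, limma), with a load of 3.79 ± 0.41, and SETD4 passed no test with a load of 2.74 ± 0.38.

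Polycomb repressive complex 2 methylates lysine 27 of histone H3 and keeps developmental genes silent; EZH2 or EZH1 is its catalytic subunit. The EZH1 mRNA was monosome-led: monosomes held 59.2%, 47.8% and 81.4% of it, light polysomes 29.02%, 25.3% and 12.8% and heavy polysomes 11.8%, 26.8% and 5.79%. The monosome share was the highest in each gradient, although it ranged widely. The log2 difference between heavy polysomes and monosomes was -2.31 ± 0.46 (SE), adjusted p = 0.00134, and the load relative to the median gene was -0.65 ± 0.15 (SE), adjusted p = 0.00944 on the log2 scale (limma). EED, which binds the finished mark, was the highest of the 4 core genes, with a load of 3.85 ± 0.27, and was higher in heavy polysomes than in monosomes (log2 0.94 ± 0.35 (SE), adjusted p = 0.0395, limma). EZH2 and the scaffold SUZ12 passed no test, with loads of 3.52 ± 0.39 and 3.37 ± 0.16.

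Histone demethylases undo these marks. None of the 17 tested was lower and 6 were higher in heavy polysomes than in monosomes, against 24.4% and 24.7% of all genes. With a gradient left out, 1 to 5 were higher and 0 to 2 lower. Of all genes, 22% were called above the median gene on load, and of the demethylases 5 were (1 to 5). The highest was KDM1A, the flavin-dependent demethylase LSD1 that works in the CoREST complex, with heavy shares of 61.96%, 61.9% and 52.96%, against monosome shares of 20.6%, 10.5% and 29.6%. The heavy shares lay above the monosome shares in every gradient, with a log2 difference of 1.66 ± 0.41 (SE), adjusted p = 0.00476 (limma), and the load was 4.26 ± 0.31. Its relative KDM1B had a load of 4.14 ± 0.37 and a log2 difference of 1.51 ± 0.34 (SE), adjusted p = 0.00285 (limma). KDM5C, an X-linked lysine 4 demethylase, had heavy shares of 65.1%, 45.7% and 42.6%, against 11.8%, 5.68% and 30.8% in monosomes, and a load of 4.05 ± 0.54. The lowest loads were those of KDM5B (3.06 ± 0.40), KDM3A (3.10 ± 0.69) and KDM2B (3.12 ± 0.25), none of which passed a test on load. The loads of KDM3A, KDM3B, KDM4C and KDM6A were each highest in gradient 2.

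Acetyltransferases loosen chromatin by acetylating histone tails, and this list had the highest median load of all 11, 3.86 ± 0.28 (SD, n = 3). Of 9 genes, 6 were called above the median gene on load and 1 below it, against 22% and 24.7% of all genes. With a gradient left out, 1 to 5 were above and 1 below. In heavy polysomes 5 of the 9 were higher than in monosomes and 1 lower (4 to 7 and 0 to 1). The shares of all genes were 24.7% and 24.4%. KAT5, the TIP60 enzyme of the NuA4 complex, had 27.3%, 18.6% and 22.6% of its signal in monosomes, 19.00%, 15.8% and 17.1% in light and 53.7%, 65.6% and 60.3% in heavy polysomes. Heavy polysomes led in all 3 gradients and light polysomes held the least, and the load was 4.25 ± 0.27. Its log2 difference between heavy polysomes and monosomes was 1.40 ± 0.34 (SE), adjusted p = 0.00451 (limma). The paralogs KAT6B and KAT6A, MYST-family enzymes of long coding sequence (6219 nt and 6012 nt), had loads of 3.97 ± 0.21 and 3.91 ± 0.36 and few monosomes (13.2% ± 4.2 and 13.8% ± 4.99, SD, n = 3). KAT8, which acetylates lysine 16 of histone H4, had a load of 3.95 ± 0.65 that passed the test (adjusted p = 0.0423, limma) but not with no filter on low values or without the variance trend, and KAT2B, a SAGA acetyltransferase, one of 3.25 ± 0.44 that did not.

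KAT2A, the GCN5 acetyltransferase of the SAGA coactivator (ENSG00000108773, chr17:42113108-42121358 in GRCh38), was the exception among them. It had 59.8%, 60.9% and 75.96% of its signal in monosomes, 6.34%, 21.8% and 4.99% in light and 33.9%, 17.3% and 19.1% in heavy polysomes. The monosome shares lay above all others, and the light share was the lowest of the 3 fractions in gradients 1 and 3 but not in gradient 2. Its log2 difference between light polysomes and monosomes was -2.88 ± 0.48 (SE), adjusted p = 0.00134, and between heavy polysomes and monosomes -1.54 ± 0.48 (SE), adjusted p = 0.0161 (limma). The heavy against light difference was 1.34 ± 0.48 (SE), adjusted p = 0.0453 (limma), and its adjusted p was 0.0502 with the replicate number as a block.

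Zinc-dependent deacetylases remove acetyl groups. HDAC2 and HDAC1 are the paired catalytic subunits of the NuRD, SIN3 and CoREST complexes. They were the only 2 of 11 called above the median gene on load, against 22% of all genes. With a gradient left out, 1 to 3 were called above it and 0 to 1 below. HDAC2 had 17.7%, 7.35% and 9.01% of its signal in monosomes, 21.2%, 27.8% and 19.6% in light and 61.1%, 64.9% and 71.4% in heavy polysomes. Heavy polysomes held more than the other fractions together in each gradient, and the load was 4.37, 4.66 and 4.86. The log2 difference between heavy polysomes and monosomes was 2.64 ± 0.46 (SE), adjusted p = 0.000526 (limma). HDAC1 had heavy shares of 66.7%, 50.2% and 50.9%, against monosome shares of 20.9%, 13.9% and 36.3%, and a log2 difference of 1.33 ± 0.48 (SE), adjusted p = 0.033 (limma). HDAC8, which deacetylates cohesin, was light-led with a coding length of only 1251 nt: its light shares were 58.2%, 42.6% and 52.5%, against 19.9%, 24.1% and 23.2% in monosomes. Light polysomes led in each gradient, and the log2 difference over monosomes was 1.18 ± 0.32 (SE), adjusted p = 0.0189 (limma).

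The lowest deacetylase loads were those of HDAC9 (2.69 ± 0.56), HDAC10 (2.71 ± 0.19), a polyamine deacetylase, and HDAC8 (3.09 ± 0.18), none of which passed the test on load. HDAC9 rests on 27 reads per library. HDAC10 was lower in heavy polysomes than in monosomes (log2 -0.84 ± 0.33 (SE), adjusted p = 0.0449, limma), and with the replicate number as a block its adjusted p was 0.0507. The third highest was the class IIa enzyme HDAC4 with 3.59 ± 0.24. Sirtuins are NAD-dependent deacylases of nucleus, cytoplasm and mitochondria. Of the 7, 1 was higher in heavy polysomes than in monosomes (0 to 2 with a gradient left out), against 24.7% of all genes. It was SIRT1, which deacetylates histones and p53, with heavy shares of 45.8%, 49.9% and 44.8%, against monosome shares of 26.7%, 16.01% and 27.3% (log2 1.04 ± 0.31 (SE), adjusted p = 0.0142, limma). SIRT6, a chromatin-bound sirtuin, had a load above the median gene at 3.92 ± 0.62 (adjusted p = 0.0465, limma), a call that was lost with no filter on low values and without the variance trend. The mitochondrial SIRT4, SIRT3 and SIRT5 had loads of 3.38 ± 0.23, 3.29 ± 0.16 and 2.997 ± 0.46. The nucleolar SIRT7 and the mainly cytoplasmic SIRT2 had 2.94 ± 0.36 and 2.91 ± 0.24, and none of these 5 passed a test.

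BAF and PBAF, the mammalian SWI/SNF remodellers, move nucleosomes with the motor SMARCA4 or SMARCA2 and a shared set of core subunits. Of the 14 genes tested, 9 were higher and 1 lower in heavy polysomes than in monosomes (3 to 9 and 0 to 2 with a gradient left out). The shares of all genes were 24.7% and 24.4%. On load 7 of the 14 were called above and 1 below the median gene (4 to 7 and 0 to 2), against 22% and 24.7% of all genes. The core subunit SMARCE1 (ENSG00000073584, chr17:40624962-40648864 in GRCh38) had the highest mean load of all members, with 4.71, 4.34 and 5.05 in gradients 1, 2 and 3. It was not the highest in each gradient. SMARCB1 was higher in gradients 1 and 3, and several members, among them HDAC2, SMARCA4, KAT5 and DNMT1, were higher in gradient 2. The signal of SMARCE1 was 13.7%, 14.1% and 7.82% in monosomes, 17.3%, 27.3% and 15.9% in light and 69.04%, 58.7% and 76.3% in heavy polysomes. The heavy share overlapped neither of the others, and the log2 difference over monosomes was 2.56 ± 0.39 (SE), adjusted p = 0.000229 (limma). SMARCB1, the core subunit lost in rhabdoid tumours, had heavy shares of 74.6%, 44.3% and 80.3%, against 11.8%, 21.6% and 7.63% in monosomes. Gradient 2 was the lowest in heavy polysomes and the highest in monosomes, without overlap between the fractions, and the log2 difference was 2.36 ± 0.52 (SE), adjusted p = 0.00229 (limma). SMARCD1 followed with a load of 4.29 ± 0.36 and a log2 difference of 1.65 ± 0.41 (SE), adjusted p = 0.00497 (limma).

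The variant subunits of these complexes lay in different places. SMARCD3, the variant of SMARCD1 best known from heart and muscle, had 50.8%, 69.2% and 48.04% of its signal in monosomes, 31.2%, 7.93% and 29.5% in light and 18.1%, 22.9% and 22.5% in heavy polysomes. Monosomes led in every gradient, and its load relative to the median gene was -0.40 ± 0.094 (SE), adjusted p = 0.00951 on the log2 scale (limma). ARID2, which defines PBAF, was light-led, with light shares of 51.03%, 55.1% and 53.7%, against monosome shares of 22.9%, 11.4% and 28.6% (log2 1.44 ± 0.39 (SE), adjusted p = 0.0206, limma). ARID1A and ARID1B, which define BAF, had loads of 3.65 ± 0.27 and 3.54 ± 0.17 and were higher in both polysome fractions than in monosomes. SMARCA2, the alternative motor, had the lowest load after SMARCD3 at 2.91 ± 0.42 and passed no test. SMARCC2 was the least steady of the list: it had 40.4%, 14.7% and 64.4% of its signal in monosomes in gradients 1, 2 and 3.

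The other remodeller ATPases include the CHD family, which carries chromodomains, and the ISWI motors SMARCA5 and SMARCA1. None of 13 was lower in heavy polysomes than in monosomes and 7 were higher, against 24.4% and 24.7% of all genes. With a gradient left out, 5 to 6 were higher and 0 to 1 lower. In light polysomes 5 of the 13 were higher than in monosomes (1 to 7), against 8.47% of all genes. Gradient 2 stood apart: the median load of the list was 3.13, 4.14 and 3.13 in gradients 1, 2 and 3. Heavy polysomes led 4, 12 and 4 of the 13 and light polysomes 8, 1 and 8. Without gradient 2, 2 of the 13 were higher and 9 lower in heavy than in light polysomes. Of the 647 other genes over 4500 nt, 6.96% were higher and 36.3% lower in that fit. SMARCAL1, a helicase that remodels stalled replication forks, had the steadiest high load, 4.15, 4.14 and 4.21, with a log2 difference between heavy polysomes and monosomes of 1.60 ± 0.37 (SE), adjusted p = 0.00337 (limma). CHD3 and CHD4, the motors of NuRD, had loads of 3.97 ± 0.24 and 3.95 ± 0.43. CHD9 (ENSG00000177200, coding length 8643 nt) had 16.2%, 13.6% and 14.3% of its signal in monosomes, 63.3%, 49.98% and 65.8% in light and 20.5%, 36.5% and 19.8% in heavy polysomes. Light polysomes led in every gradient, least so in gradient 2, and the log2 difference over monosomes was 2.01 ± 0.36 (SE), adjusted p = 0.00219 (limma). EP400, the motor of NuA4 with a coding length of 9369 nt, was higher in light polysomes than in monosomes too (light 51.3% ± 16, SD, n = 3; log2 1.31 ± 0.39 (SE), adjusted p = 0.0318, limma). The lowest loads were those of CHD2 (3.05 ± 0.44), SMARCAD1 (3.11 ± 0.71) and CHD9 (3.18 ± 0.34), none of which passed the test on load.

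**Figure D3:**
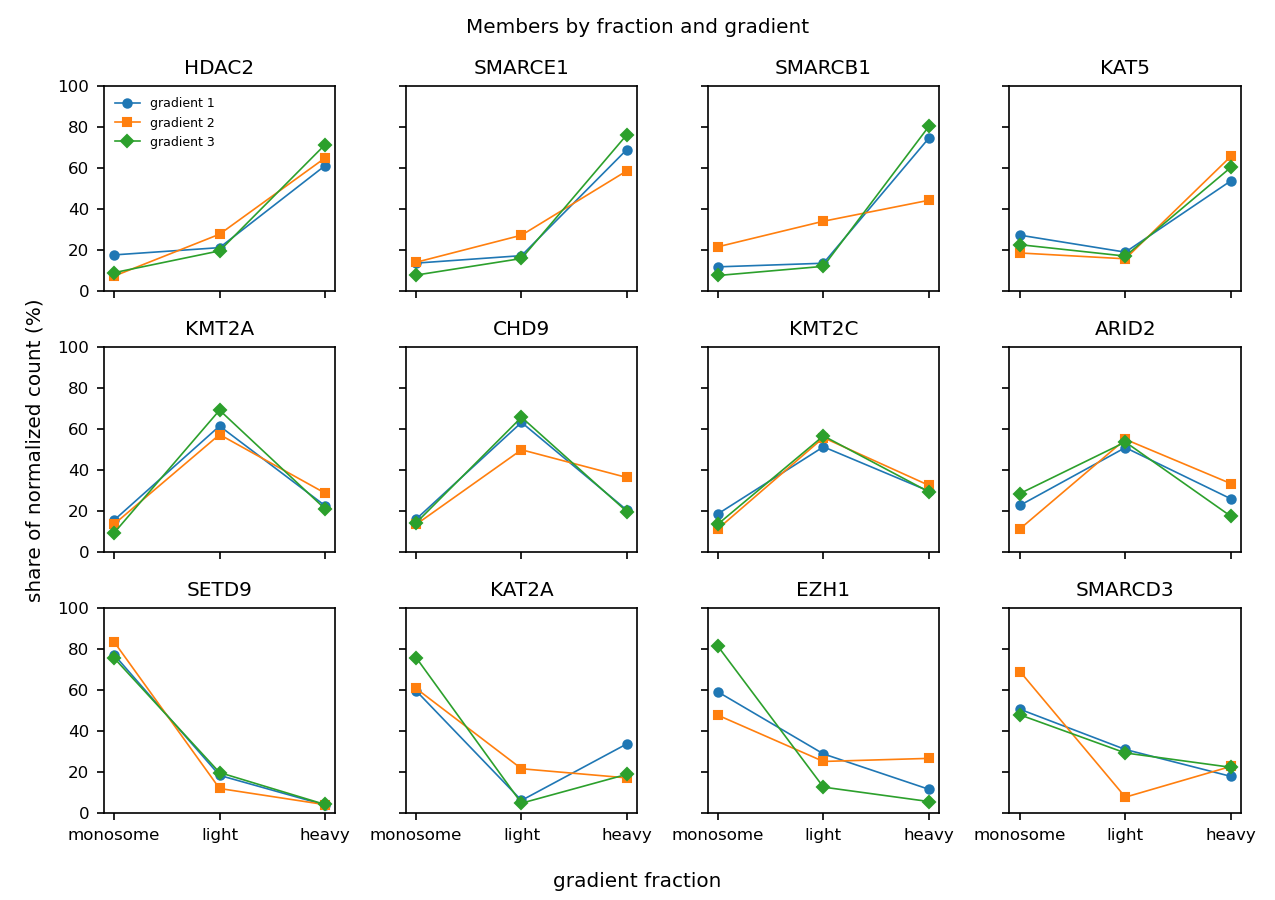
Each panel shows 1 chromatin mRNA, with its share of normalized count (vertical axis, percent) in the monosome, light and heavy fractions and 1 line per gradient. The top row is heavy-led (HDAC2 65.8% heavy), the middle row light-led (KMT2A 62.7% light) and the bottom row monosome-led (SETD9 78.9% monosome).

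Among the bromodomain readers, which bind acetylated histones, and the ARID DNA-binding factors, 4 of 11 were higher and none lower in heavy polysomes than in monosomes. With a gradient left out, 2 to 5 were higher and 0 to 1 lower. The shares of all genes were 24.7% and 24.4%. BRD3 had a load of 4.05 ± 0.49 and ARID3A one of 3.82 ± 0.42, both above the median gene (adjusted p = 0.015 and 0.0418, limma). BRD2, the most abundant member with 5793 reads per library and 1907 normalized counts per kb of exon, passed no test at a load of 3.67 ± 0.21. BRD8, a NuA4 subunit, varied most of all members, with loads of 2.14, 4.01 and 2.01: its monosome shares were 56.2%, 23.1% and 65.8%, and gradient 2 went the other way from gradients 1 and 3. BRD1 and ARID3B, with loads of 3.26 ± 0.54 and 3.35 ± 0.55, passed no test.

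The DNA methyltransferases and the TET dioxygenases, which oxidise methylcytosine, had no member whose load passed the test, and the lowest adjusted p was 0.0584 for DNMT1 (limma). DNMT1, which copies methylation after replication, was higher in heavy polysomes than in monosomes (log2 1.25 ± 0.39 (SE), adjusted p = 0.017, limma), with heavy shares of 38.6%, 64.1% and 41.03%, against 30.4%, 10.4% and 23.96% in monosomes. That call was lost without gradient 2. TET1 and TET3 were light-led in every gradient: light polysomes held 46.8%, 53.4% and 47.3% of TET1 and 54.00%, 49.2% and 49.1% of TET3. Over monosomes the log2 differences in light polysomes were 1.54 ± 0.30 (SE), adjusted p = 0.00373 for TET1 and 1.59 ± 0.28 (SE), adjusted p = 0.00202 for TET3 (limma). DNMT3B, DNMT3A and TET2, with loads of 3.37 ± 0.33, 3.22 ± 0.44 and 3.19 ± 0.47, passed no test. One gene met the symbol rule without belonging to a role: BRD3OS, the transcript opposite BRD3, with a load of 1.92, 1.71 and 1.78 and monosome shares of 50.8%, 78.4% and 61.1%. Its load relative to the median gene was -0.81 ± 0.093 (SE), adjusted p = 0.000563 on the log2 scale (limma). The exons of BRD3 cover 21.4% of its own, and whether reads were counted by strand is not given in the sources used here, so reads of the 2 genes may be mixed. CHD5 and ARID3C were not tested, with 4 to 15 and 0 to 14 reads in any library.

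The light polysome signal of the members followed coding length. Across the 117 members, Pearson's r between log10 coding length and the light share was 0.62 (Spearman's rho 0.62); it was 0.51, 0.33 and 0.66 in gradients 1, 2 and 3. The same r over 12711 genes was -0.08, but the light share of long genes outside the members rose with length too. Their median light share was 28.2% at 1501 to 3000 nt and 44.0% from 7001 nt, against 29.3% and 47.2% for the members. At 900 nt or less it was 35.6% for 3341 other genes, a range that holds only 2 members. For the members' monosome share, r with log10 coding length was -0.47, with -0.32, -0.52 and -0.42 in gradients 1, 2 and 3. The heavy share gave -0.16, 0.33 and -0.16, and the load -0.04, 0.42 and 0.02. For both measures gradient 2 stood apart from the other gradients. These are descriptions across genes of the same libraries, and genes are not independent replicates.

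The excess of light polysome calls lay among the long mRNAs. Of the 36 members with a coding sequence over 4500 nt, 21 (58.3%) were higher in light polysomes than in monosomes, against 29.5% of the 647 other genes of that length. Of the 81 shorter members, 6 (7.41%) were, against 7.19% of 11947 other genes. Between heavy polysomes and monosomes, 22 of the 36 long members (61.1%) were higher in heavy polysomes, against 32.6% of other long genes. Among the shorter members 24 of 81 (29.6%) were, against 24.2%. None of the long members was lower in either polysome fraction than in monosomes. The median monosome share of the long members was 18.2%, against 23.2% for other genes of that length. No test was run on these differences between sets. Without gradient 2, 25 of the 36 long members (69.4%) and 45.1% of the 647 other long genes were higher in light polysomes than in monosomes. The other gradients mattered more: without gradient 1 or 3, only 10 and 12 of all 117 members had a call in this comparison, higher or lower. Those calls were not split by length, so the excess among long members rests on all 3 gradients.

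Which fraction led a long member depended on the gradient. Light polysomes led 20, 13 and 23 of the 36 long members in gradients 1, 2 and 3, and heavy polysomes led 14, 23 and 9. Among the other 647 long genes, light polysomes led 53.9%, 19.9% and 61.8% of them. The part of light replicate 2 in this, the library that resembled heavy ones, was not tested. Across members the light shares correlated at 0.92 between gradients 1 and 3, at 0.24 between 1 and 2 and at 0.32 between 2 and 3. Light polysomes led 14 members in all 3 gradients (12.0%), against 9.03% of all genes, and heavy polysomes led 26 (22.2%), against 21%. Monosomes led 8 (6.84%), against 17.2%. Over the members r of the load was 0.28 with the log10 of the summed normalized count, 0.03 with that of the 5′ UTR length (108 members with a modelled 5′ UTR) and -0.0049 with the GC content of the coding sequence.

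**Figure D4:**
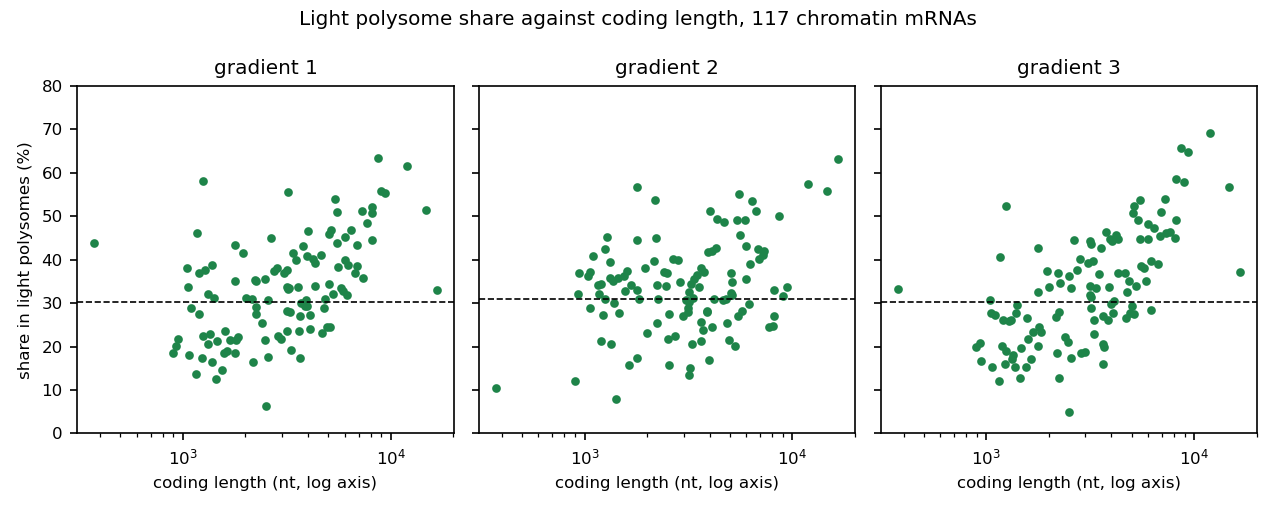
Each point is 1 of the 117 chromatin mRNAs; the horizontal axis is its coding length in nt on a log axis, the vertical axis its share in light polysomes in that gradient, and the dashed line the median of all genes tested. The points climb with length in gradients 1 and 3 (r = 0.51 and 0.66) and less so in gradient 2 (r = 0.33).

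Many of these enzymes come as pairs of paralogs that can take each other's place in a complex, and 28 pairs were compared within gradients. The sequences around the start codon are shown for 4 of the 5 pairs whose loads did not overlap, since start-codon context is part of what sets how often ribosomes begin on an mRNA. They run 5′ to 3′ on the coding strand, with the start codon in capitals, and were read from the GENCODE 29 transcripts on GRCh38.
EZH2: cgaagaataatcATGggccag
EZH1: gattacagcaagATGgaaata
SMARCA4: gctcccgtgaagATGtccact
SMARCA2: caggagaggtagATGtccacg
KDM5A: ccggccgttgcaATGgcgggc
KDM5B: cagcctgcggtgATGgaggcg
EP300: aaagaattaaaaATGgccgag
CREBBP: gagcaggtgaaaATGgctgag
EZH2 lies on the minus strand at chr7:148807383-148884321, EZH1 on the minus strand at chr17:42700275-42745049, SMARCA4 on the plus strand at chr19:10960825-11079426 and SMARCA2 on the plus strand at chr9:1980290-2193624. KDM5A lies on the minus strand at chr12:280129-389454, KDM5B on the minus strand at chr1:202724495-202809470, EP300 on the plus strand at chr22:41091786-41180079 and CREBBP on the minus strand at chr16:3725054-3880726.
A purine at the third base before the start codon and a G just after it are known to favour initiation in mammals. The first was present in 7 of these 8 sequences, all but SMARCA2, and the second in 6, all but SMARCA4 and SMARCA2. Over all members with a modelled 5′ UTR both were present in 50.9%, against 45.8% of all genes (no test was run). Among the 108 members with a modelled 5′ UTR, 62.96% had an ATG in it, against 52.7% of all genes with one. Members with such an ATG had a median load of 3.444 (n = 68), against 3.399 for those without (n = 40). All genes with a modelled 5′ UTR went the other way, with 3.119 (n = 6546) against 3.321 (n = 5880). No test was run on these medians.

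In 13 of the 28 pairs 1 gene had the higher load in all 3 gradients, and in 5 the loads of the 2 genes did not overlap. With 3 gradients the smallest p that an exact two-sided sign-flip permutation test can give is 0.25, so no pair could pass a threshold of 0.05. By the same reckoning a pair without a difference would keep 1 direction with a probability of 0.25. How often other pairs of genes keep 1 direction or do not overlap was not computed. EZH2 had loads of 3.39, 3.96 and 3.20, against 2.02, 2.72 and 1.48 for EZH1, a difference of 0.80 ± 0.29 in log2 load (SD, n = 3). Every EZH2 value lay above every EZH1 value, and the proteins are the alternative methyltransferases of Polycomb repressive complex 2. SMARCA4 had 3.76, 4.54 and 4.10, against 2.63, 3.39 and 2.71 for SMARCA2, a difference of 0.51 ± 0.088. KDM5A had 3.63, 4.20 and 3.69, against 3.03, 3.47 and 2.68 for KDM5B, a difference of 0.33 ± 0.11. The 5′ UTR of the KDM5B transcript used holds 22 ATGs in 1165 nt, and that of KDM5A 1 ATG in 363 nt. Whether these ATGs bear on the loads was not tested. KMT5B had 3.28, 3.35 and 3.34, against 2.76, 2.78 and 2.36 for KMT5C, a difference of 0.34 ± 0.14. KMT5B was also higher in light polysomes than in monosomes (log2 0.89 ± 0.29 (SE), adjusted p = 0.0438, limma), with an adjusted p of 0.0515 under the replicate block. EP300 had 3.09, 3.54 and 3.46, against 3.56, 4.20 and 3.82 for CREBBP, a difference of -0.20 ± 0.053; both are coactivator acetyltransferases of nearly equal coding length (7242 nt and 7326 nt).

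In the other 8 pairs with 1 direction the loads overlapped. The first gene was higher in SMARCC1 against SMARCC2 (0.42 ± 0.28 in log2 load, SD, n = 3), CHD7 against CHD8 (0.15 ± 0.027) and SMARCD1 against SMARCD2 (0.09 ± 0.085). It was lower in KAT2A against KAT2B (-0.48 ± 0.27), NSD2 against NSD1 (-0.24 ± 0.29), SETD1A against SETD1B (-0.20 ± 0.037), KDM6A against KDM6B (-0.13 ± 0.14) and KMT2A against KMT2B (-0.12 ± 0.10). The remaining 15 pairs changed direction between gradients. The closest of them included EHMT1 and EHMT2 (-0.01 ± 0.069), which methylate lysine 9 of histone H3 as a dimer, CHD4 and CHD3 (-0.01 ± 0.077), TET1 and TET3 (0.02 ± 0.059), KDM3A and KDM3B (-0.02 ± 0.065) and KAT6A and KAT6B (-0.02 ± 0.067). HDAC1 and HDAC2 differed by -0.18 ± 0.21, BRD2 and BRD3 by -0.14 ± 0.21, KMT2C and KMT2D by -0.13 ± 0.21 and SMARCA5 and SMARCA1 by 0.18 ± 0.21. The spread over gradients was larger than the difference in all of these. The last 6 pairs were KDM2A and KDM2B (0.11 ± 0.14), HDAC4 and HDAC5 (0.05 ± 0.057), ARID1A and ARID1B (0.04 ± 0.12), KDM1A and KDM1B (0.04 ± 0.23), ARID4A and ARID4B (-0.03 ± 0.10) and DNMT3A and DNMT3B (-0.07 ± 0.11).

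**Figure D5:**
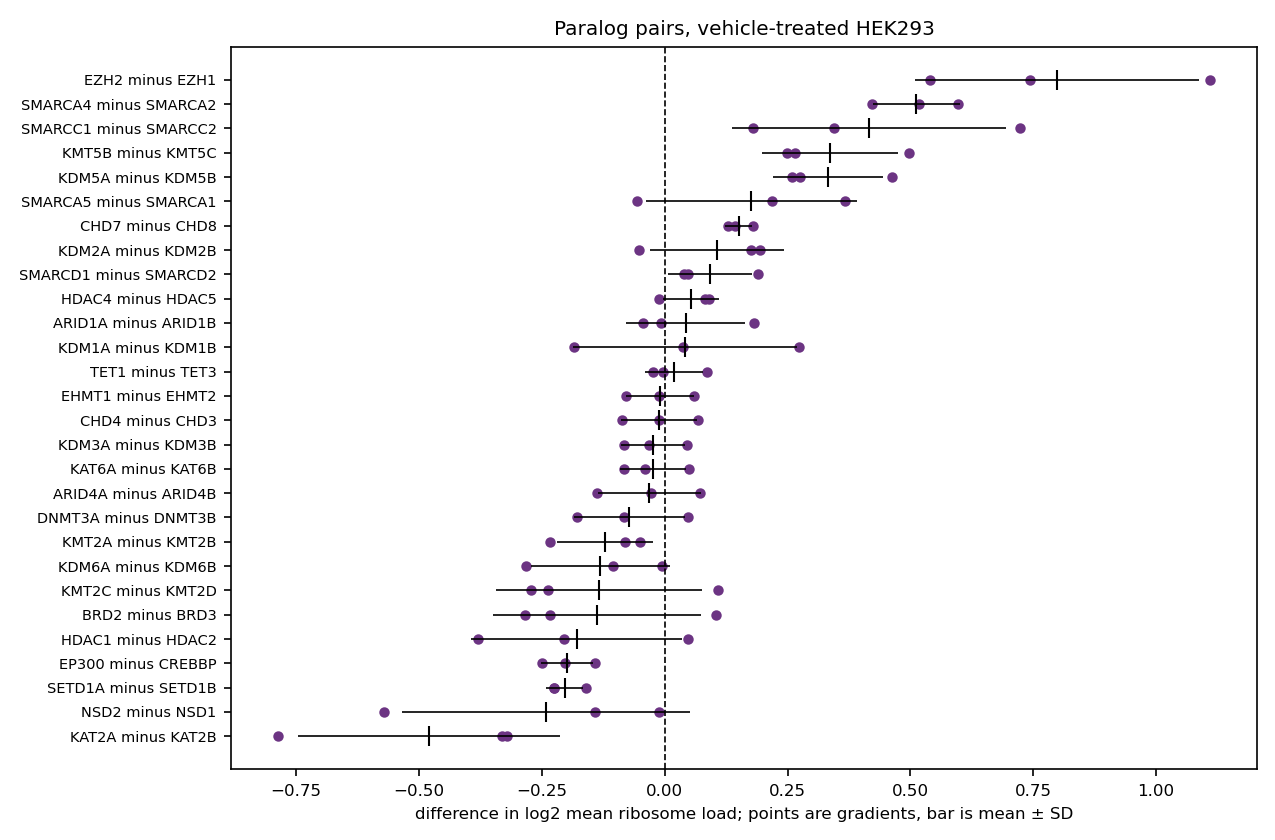
Each row is a pair of paralogs; purple points give the difference in log2 mean ribosome load (first gene minus second) in each of the 3 gradients, and the black bar the mean ± SD. EZH2 minus EZH1 is highest at 0.80 and KAT2A minus KAT2B lowest at -0.48, and 15 rows have points on both sides of 0.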

How the data were processed

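The authors' deposited table holds, for 9 vehicle libraries, a normalized signal per gene, a percent per fraction and a score for mean ribosome load. The submitters' processing notes name featureCounts and GRCh38; which aligner, annotation and strand setting were used is not given in the sources used here. Each deposited signal value is a read count over a library-wide size factor: whole reads were recovered for 100% of values at a tolerance of 0.01. The deposited percent is a gene's share of the summed signal over the 3 fractions of 1 replicate number, and the authors' load score was recomputed to within 4.61e-09 with weights of 1, 2.5 and 6. The authors' deposited enrichment classes gave no result here. The column letters F and P match the library names that the labels give the light and heavy fractions. The labels name the monosome libraries with another letter than the table's A, which was read as monosome because the table's own class of leading fraction is Monosome in exactly those rows where A has the highest mean percent; A and M replicates were matched by number on that reading.

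Genes needed reads in each gradient and 10 or more recovered reads per library on average. Fractions were fitted in limma 3.58.1 (R 4.3.3, variance trend) as log2(normalized count + 1), which understates changes of low genes, with fraction as the only term over 9 libraries. Load per gradient, as log2 relative to that gradient's median gene, was tested against 0 with limma, n = 3. Benjamini-Hochberg adjustment ran over 12720 genes at 0.05. On the recovered reads edgeR 4.0.16 (quasi-likelihood, TMM) called 3063 genes higher and 3194 lower in heavy polysomes than in monosomes, and DESeq2 1.42.0 called 3166 and 3434. The labels give the replicate number as a batch; same-numbered libraries had correlations of deviations from -0.54 to 0.39. Coding and UTR lengths came from GENCODE 29, which held 13658 of the 13661 gene IDs. Named are the 3 highest and 3 lowest members of each list by load, all members of lists of 5 or fewer, paralog pairs and the most and least abundant member. EP400, BRD3OS, CHD5, SIRT3, SETD7, KDM4A, KDM4C, KAT7, BRD7 and BRD9 were named after their values were seen. Members, lists and pairs were chosen with earlier results of these data known. KDM5D, CHD1L and DNMT3L are not analysed here, and the values of 1 member are not reported here. Fits were tested on simulated data.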

Additional observations from a re-analysis of the deposited data

How the results depend on the processing

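The counts for heavy polysomes against monosomes, light polysomes against monosomes and heavy against light polysomes were recomputed with pseudocounts of 0.5 and 5, with no filter and with a mean of at least 50 reads, with edgeR and DESeq2 on the recovered reads and with the replicate number as a block. In none of these did a count for the members or for all genes move by over 1.5 times. With the replicate block, limma called 46 members higher and 9 lower in heavy polysomes than in monosomes, 26 and 5 for light against monosomes and 13 and 6 for heavy against light; the calls lost in pairing the samples were those of HDAC10, KMT5B, KAT2A and KMT2C given above, and no other call of a member was lost. The load has no such fit, since a gradient already joins the fractions of 1 number. Leaving out a gradient moved them more. With each gradient, or light replicate 2, left out, members higher and lower came to 21 to 54 and 4 to 18 for heavy against monosome, 8 to 33 and 2 to 16 for light against monosome, 0 to 35 and 0 to 26 for heavy against light, and 8 to 34 and 4 to 11 for the load. For all genes the ranges were 1271 to 3996 and 1866 to 3818, 149 to 2202 and 413 to 2305, 0 to 3806 and 0 to 3845, and 1258 to 3698 and 2164 to 3566. The counts of 0 between heavy and light polysomes came without gradient 1 or 3 by limma; at an unadjusted p under 0.05 these fits held 2490 and 3100 genes, 9 and 13 of them members. edgeR and DESeq2 were not run with a gradient left out. Without light replicate 2 alone, 28 members were higher and 11 lower in heavy than in light polysomes, and 3137 genes higher. A mean of at least 50 reads gave 10 members with a load below the median gene, and replacing the load by the summed polysome share gave 2053 genes below it and kept 25 of the 37 calls of members, as given above. No filter lost 3 of those 37, a mean of at least 50 reads 2, and no variance trend 5 (SIRT6, KAT8, ARID3A, KDM4A and ARID4B). Between fractions edgeR lost the calls of HDAC10 (heavy against monosome), SMARCD3 (light against monosome) and KAT2A, EED and KAT8 (heavy against light). Centring on the mean gene, weights of 1, 3 and 8, no variance trend and no filter moved no count of loads by over 1.5 times, and by heavy share 11 in place of 13 paralog pairs kept 1 direction. The causes of these changes were not tested. No call changed sign under any of these alternatives. Depth limits CHD5, ARID3C and HDAC9; the 3 gradients limit the rest.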

Other observations

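Genes that act in the same complexes but have other names were listed in 7 groups, 169 genes in all, with the members' results known. By limma, 49 of them (28.99%) had a load above the median gene, against 22% of all genes, and 23 (13.6%) below it, against 24.7%; with a gradient left out these were 18 to 56 and 14 to 28. In heavy polysomes 57 (33.7%) were higher than in monosomes, against 24.7% of all genes, and 25 (14.8%) lower, against 24.4% (17 to 68 and 13 to 35 with a gradient left out). The ISWI, INO80 and SRCAP subunits had 16 of 25 higher and 3 lower in heavy polysomes than in monosomes (5 to 14 and 1 to 2 with a gradient left out). RUVBL1, an AAA+ ATPase of INO80, SRCAP and NuA4, had a load of 4.84 ± 0.43 and the actin-related ACTR6 one of 4.18 ± 0.27 (SD, n = 3). The small subunits ZNHIT1 and CHRAC1 had 2.20 ± 0.25 and 2.52 ± 0.16, below the median gene. The partners of the SAGA, ATAC, NuA4 and MYST acetyltransferases had 4 of 42 genes (9.52%) higher and 10 (23.8%) lower in heavy polysomes than in monosomes, the lower share being near that of all genes (0 to 9 and 5 to 13 with a gradient left out). MSL2, a ubiquitin ligase of the KAT8 complex, had a load of 1.47 ± 0.13 with 84.1% of its signal in monosomes (adjusted p = 0.000183, limma), and the NuA4 scaffold EPC2 one of 1.90 ± 0.10. MORF4L1, a reader of NuA4, and USP22, the deubiquitinase of SAGA, had 4.30 ± 0.50 and 4.09 ± 0.40.

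Among the COMPASS partners PSIP1, which tethers KMT2A to chromatin, had the highest load of the list at 4.86 ± 0.18 (adjusted p = 0.000511, limma), followed by ASH2L with 4.41 ± 0.33, while HCFC2 and the small subunit DPY30 had 2.58 ± 0.49 and 2.14 ± 0.12. Of the Polycomb partners, RBBP7 and AEBP2 had loads of 4.50 ± 0.38 and 4.11 ± 0.015, and PHF19 and EPOP had 1.85 ± 0.31 and 2.66 ± 0.49. BAF partners ran from 4.25 ± 0.54 for DPF2 and 4.23 ± 0.24 for BCL7A to 2.19 ± 0.12 for BCL11A and 2.06 ± 0.51 for BCL7C. In the deacetylase complexes SAP30 had 4.66 ± 0.46 and RCOR2 4.48 ± 0.46, against 2.47 ± 0.15 for CDK2AP1 and 2.32 ± 0.060 for ING2. Of the other writers, erasers and readers, SMYD3 and CARM1 had 4.76 ± 0.50 and 4.34 ± 0.76, and SUV39H2 and PRMT2 had 2.11 ± 0.048 and 2.06 ± 0.23.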
